A study of Homo sapiens with 6 samples.

Results

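The genes described here are 38 interferon-stimulated genes, transcription factors of the interferon pathway and sensors of viral RNA, taken from a fixed list of symbols and matched to 60660 gene IDs measured in each library. All 38 were found and all 38 passed the filter on low values, which 28015 genes passed in all. They were measured by RNA sequencing in the cell line OCI-AML3, established from a human acute myeloid leukaemia. 3 libraries came from cells with an empty lentiviral vector (labelled pLenti) and 3 from cells overexpressing SLC2A3, which encodes the glucose transporter GLUT3. Cells of both groups received 250 µM vitamin C. The labels give neither the promoter of the vector nor whether the lines are clones or pools, and they do not say that the 3 libraries of a group are separate cultures. The p-values therefore measure the spread between these libraries only, which may be technical.

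Type I interferons bind the receptor pair IFNAR1 and IFNAR2, whose kinases JAK1 and TYK2 phosphorylate STAT2. A complex that holds STAT2 and IRF9 then binds the interferon-stimulated response element in the promoters of antiviral genes. The cytoplasmic helicases RIG-I (encoded by RIGI), MDA5 (IFIH1) and LGP2 (DHX58) detect or help detect viral RNA, and the first pair signal through the mitochondrial adaptor MAVS to induce interferon. Many cells, myeloid cells among them, express part of this machinery at rest.

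The response element was searched as a pair of GAAA separated by any 2 bases, or of TTTC on the other strand. RefSeq promoter sequences (GRCh38.p14) were matched for 30 of the 38 members. In the 250 bases before the start, 21 of these 30 genes (70% of them) held a match, against 3.71% of all 27305 genes in the table. Both strands were searched, and matches may overlap each other. The stretches below belong to members described in detail, which is why they are shown, and capitals mark the matches.
BST2: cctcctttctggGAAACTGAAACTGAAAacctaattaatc
ISG15: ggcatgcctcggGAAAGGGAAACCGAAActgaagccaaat
IFI6: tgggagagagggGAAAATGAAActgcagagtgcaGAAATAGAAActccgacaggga
IFITM3: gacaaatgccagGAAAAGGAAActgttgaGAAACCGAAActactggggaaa
IFIH1: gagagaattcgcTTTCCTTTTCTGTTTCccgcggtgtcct
EPSTI1: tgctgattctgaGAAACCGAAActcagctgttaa
The BST2 stretch is chr19:17405733-17405772 on the minus strand, the ISG15 stretch chr1:1013372-1013411 on the plus strand and the IFI6 stretch chr1:27672264-27672319 on the minus strand. The IFITM3 stretch is chr11:320874-320924, the IFIH1 stretch chr2:162318816-162318855 and the EPSTI1 stretch chr13:42992270-42992303, all on the minus strand. In BST2, ISG15 and IFIH1 the pair of matches overlap each other. BST2 was one of 8 members with CT as the 2 bases between the GAAA pair, or the reverse complement, which 0.26% of all genes held.

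IRF1, IRF9, STAT2, RIGI, SAMD9L and IFI35 had no response element match in this window, which says only that these letters are not there. IRF1 held the letters TTCNNNGAA of the gamma-activated site, an element of interferon gamma responses, as did 9 of the 30 members and 8.09% of all genes. This second motif was chosen after the first had been counted. It reads the same on both strands, and capitals mark it in the IRF1 stretch at chr5:132490877-132490909 on the minus strand.
IRF1: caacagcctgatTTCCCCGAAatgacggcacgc

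Library depth was 31054462 to 35770556 reads, and values are gene reads divided by 1 size factor per library (normalised reads). SLC2A3 stood at 1194, 1183 and 1257 normalised reads with the empty vector and at 4056, 3716 and 4054 with SLC2A3, a 3.25-fold difference in the direction of the labels. Of the 10 myeloid markers, all were tested, whereas the T-cell genes CD3D and CD3E and the B-cell gene MS4A1 had 0 reads in every library. The summed level of 5 fibroblast markers was 8.15 to 29 normalised reads with the empty vector and 24.6 to 74.8 with SLC2A3. That of 5 epithelial markers was 25 to 49.9 and 36.2 to 69.4. Their part in the results was not tested. The noncoding RNA RN7SL1 stood at 538, 1812 and 705 normalised reads with the empty vector and at 2233, 6026 and 1922 with SLC2A3. It was highest in replicate 2 of each group. All its SLC2A3 values lay above all its empty vector values, and 16.3% of all tested genes did not overlap between the groups. The part of RN7SL1 in the results was not tested.

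No member of the list passed the test for a difference between SLC2A3 and empty vector cells. Limma called 0 of 38 members at an adjusted p under 0.05, when 1.49% of all tested genes were called (0.692% higher and 0.8% lower). At an unadjusted p under 0.05, there were 6 members (15.8%, against 11.8% of all genes), 1 of them higher and 5 lower, when 5.63% of all genes were higher and 6.12% lower. Among genes with a mean of at least 50 normalised reads the shares were 17.2% of 29 members and 18.6% of all such genes. edgeR and DESeq2 on the recovered reads also called 0 members, with 5 of 32 and 3 of 38 at an unadjusted p under 0.05, when 15% and 6.72% of all the genes they tested were. edgeR called 3.29% of the genes it tested and DESeq2 7.98% of those it gave an adjusted p. DESeq2 gave an adjusted p to 12 of the 38. The lowest adjusted p of a member by limma was 0.129, for IRF1. Members were called under 2 of 23 alternatives. IRF1 passed with a value of at least 50 required in 3 libraries (limma adjusted p = 0.0495, when 5.53% of genes were called). IRF1 and BST2 passed without both libraries numbered 2 (limma adjusted p = 0.0305 and 0.00414, when 2.02% were called).

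The members differed far more among themselves than between the groups. 5 had a mean of at least 1000 normalised reads (BST2, MX2, STAT2, IRF1 and IFI35), 16 lay from 100 to 1000, 8 from 50 to 100 and 1 from 20 to 50, and 8 lay under 20. IFITM1, GBP1, IFI44L and EPSTI1 had no reads in at least 1 library. Per kilobase of merged exons, the level ran from 0.244 normalised reads for GBP1 to 11638 for BST2, with a median of 29 over the members and 27.0 over all tested genes.

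**Figure D1:**
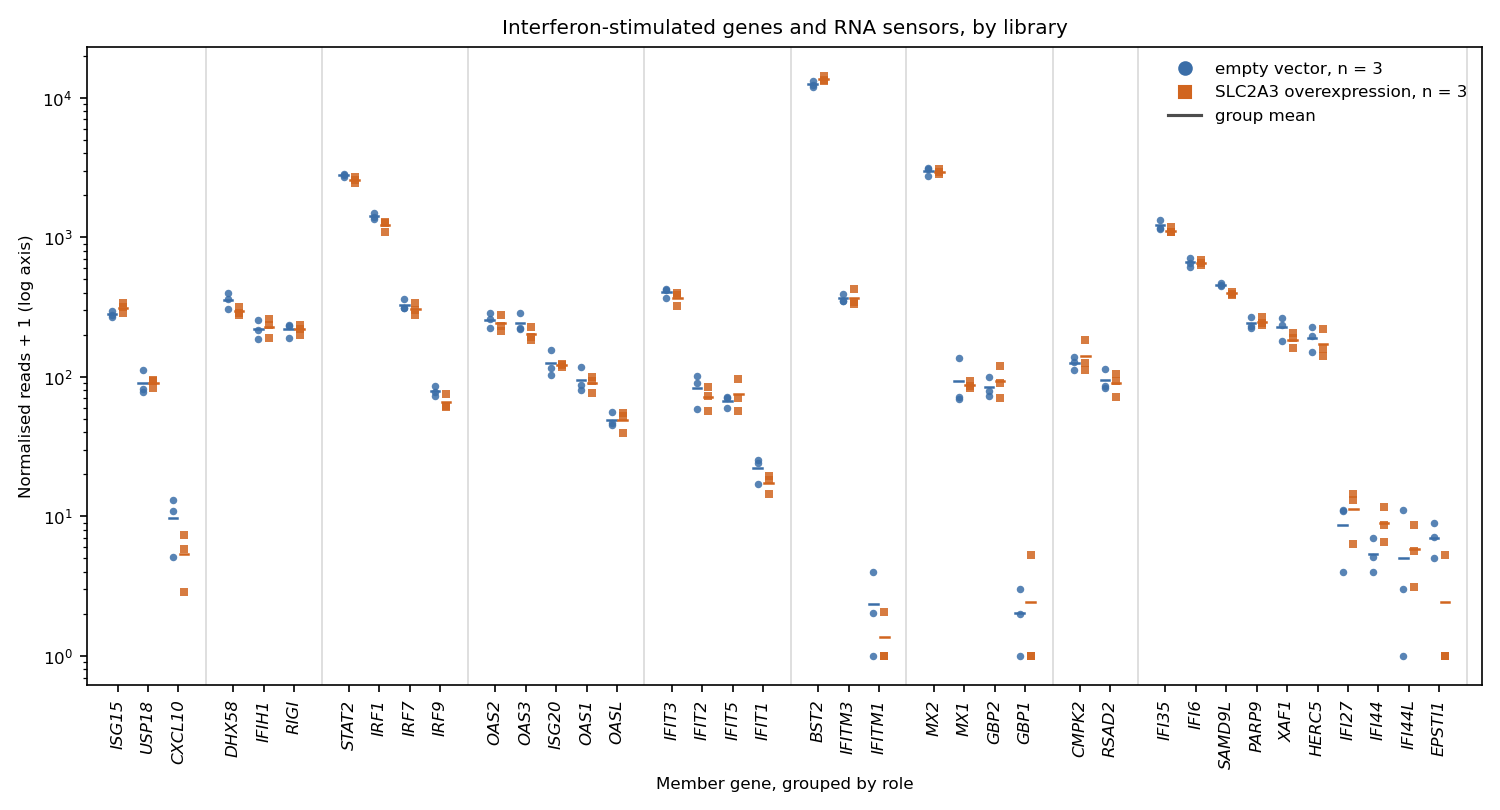
Normalised reads plus 1 (log axis) of the 38 members in each of the 6 libraries, grouped by role, with circles for the empty vector, squares for SLC2A3 overexpression and short lines for group means (n = 3). BST2 lies at 11974 or above in every library, and the groups of most members overlap.

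For the 29 members with a mean of at least 50 normalised reads, the fitted log2 changes ran only from -0.28 (XAF1) to 0.16 (ISG15). The 95% interval of the change lay within 1.5-fold in either direction for 24 of these 29, and reached beyond it for IRF9, IFIT2, IFIT5, GBP2 and XAF1. For the 9 members below that level no interval stayed within 1.5-fold. For these low genes the intervals leave room for a difference of that size, and the missing calls do not show that the groups are alike.

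**Figure D2:**
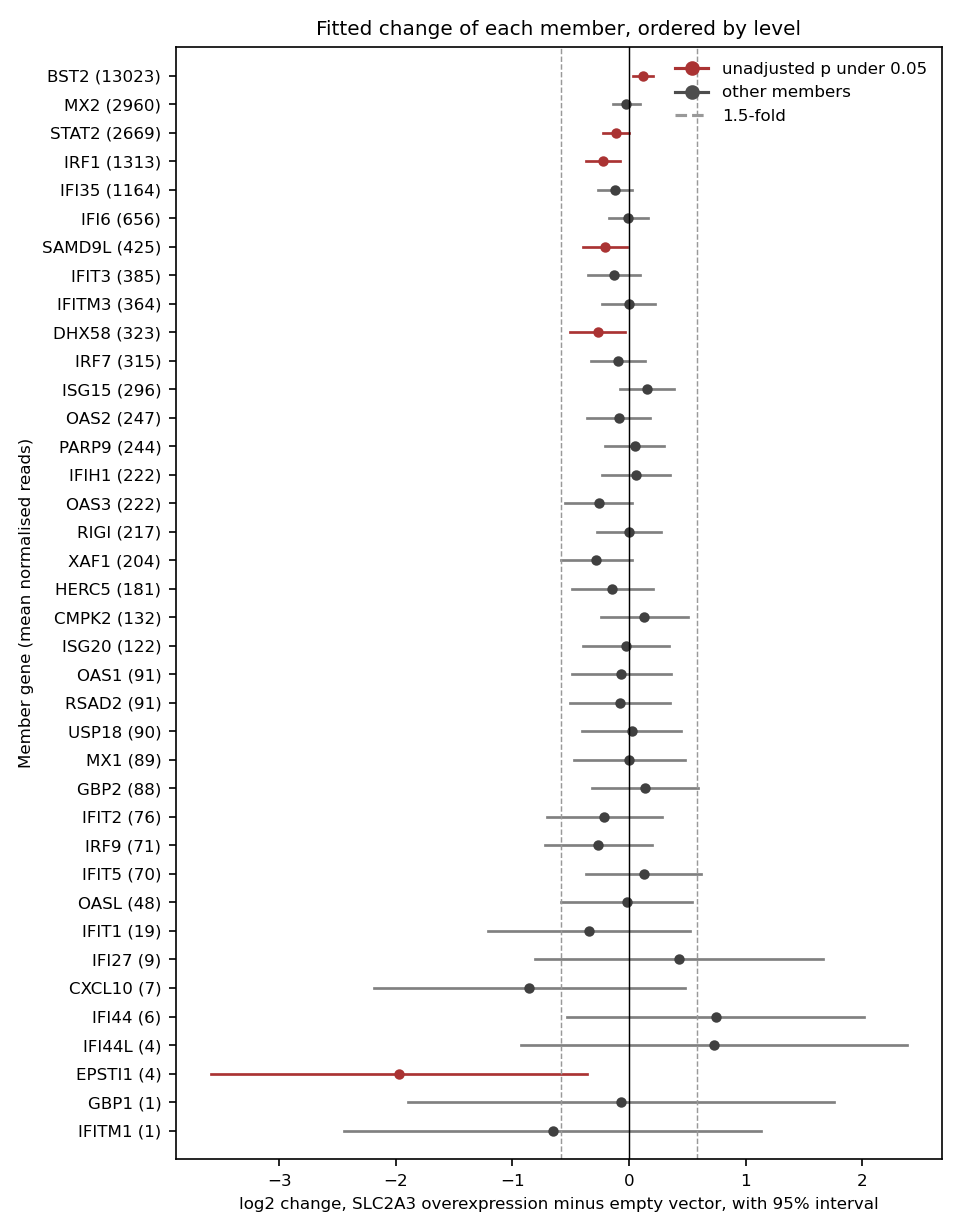
Fitted log2 change of each member (SLC2A3 overexpression minus empty vector) with its 95% interval, ordered by mean normalised reads, given in brackets. The 6 members with an unadjusted p under 0.05 are in red, and intervals widen toward the low genes at the bottom.

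Of the 38 fitted changes, 25 were below 0 (65.8%), against 49.7% of all tested genes, and the median log2 change was -0.07 against 0.00. Among genes with a mean of at least 50 normalised reads, 19 of 29 members (65.5%) and 52.1% of all such genes were below 0. The groups did not overlap for 3 members, IRF1, STAT2 and SAMD9L, when 16.3% of all tested genes did not overlap, and 22.7% of those with a mean of at least 50, so that share of the members lies under the background. The median of the members moved to -0.03 without SLC2A3 overexpression replicate 3, which held the lowest value of 9 members and the highest of 2. If any member is lower with SLC2A3, these bulk samples cannot tell a lower level in every cell from fewer cells with the transcript.

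All 4 transcription factors had a fitted change below 0, and none passed. IRF1, which is induced by interferon gamma and activates antiviral genes, had 1387, 1351 and 1499 normalised reads with the empty vector and 1268, 1277 and 1093 with SLC2A3. All SLC2A3 libraries lay below all empty vector libraries, with the lowest in replicate 3. Means were 1412 ± 76.9 and 1213 ± 104 (SD, n = 3), a log2 change of -0.22 (SE 0.0704, 95% interval -0.37 to -0.08, limma adjusted p = 0.129, unadjusted 0.00391). IRF1 lies on chromosome 5 (132481609 to 132490798, GRCh38, GENCODE 29). Its exons overlap 1716 bases of C5orf56 on the other strand, which had a mean of 160 normalised reads, and the sources used here do not say whether counting used strand.

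STAT2, which acts with IRF9 in the type I response, had 2775, 2713 and 2834 normalised reads with the empty vector and 2698, 2440 and 2551 with SLC2A3. The groups were separate but close, since the highest SLC2A3 library lay just under the lowest empty vector library. The log2 change was -0.12 (SE 0.0539, limma adjusted p = 0.399).

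IRF7, the main amplifier of interferon alpha production, had 310, 309 and 359 normalised reads with the empty vector and 298, 339 and 278 with SLC2A3. IRF9, a DNA-binding subunit of the complex that holds STAT2, had 84.5, 72.0 and 77.1 against 74.3, 60.4 and 59.8. Both genes overlapped between the groups, with log2 changes of -0.10 (limma adjusted p = 0.823) and -0.26 (0.733). With 1 library left out, the change of IRF7 ran from -0.18 to -0.026. IRF9 shares 1838 exon bases with an overlapping annotated gene on the same strand, so the division of its reads is uncertain. The summed level of the 4 factors was 4445 to 4770 normalised reads with the empty vector and 3982 to 4339 with SLC2A3. STAT2 and IRF1 made up most of this sum, so it says little about IRF7 and IRF9.

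Of the RNA sensors, RIGI, which recognises short double-stranded RNA with a triphosphate end, had 188, 231 and 233 normalised reads with the empty vector and 200, 233 and 219 with SLC2A3. IFIH1, the sensor of long double-stranded RNA, had 253, 185 and 216 against 234, 258 and 189. Their groups overlapped over most of their ranges, with log2 changes of 0.00 (95% interval -0.27 to 0.27) and 0.06 (-0.23 to 0.35). DHX58, which lacks the signalling domains of the other two, had 361, 397 and 305 with the empty vector and 315, 278 and 284 with SLC2A3. Only the highest SLC2A3 library reached into the empty vector range. Its log2 change was -0.27 (SE 0.115, 95% interval -0.51 to -0.04), with a limma adjusted p of 0.320.

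BST2, the membrane protein tetherin that holds budding viruses on the cell, was the most abundant member by a wide margin. It ranked 92 by level per kilobase among tested genes with a known exon length. Its values were 12251, 13242 and 11974 normalised reads with the empty vector and 14268, 13044 and 13358 with SLC2A3. The groups overlapped, because empty vector replicate 2 lay above SLC2A3 replicate 2. The log2 change was 0.12 (SE 0.0435, 95% interval 0.03 to 0.21, limma adjusted p = 0.221), the only one of the 6 with an unadjusted p under 0.05 that was above 0. BST2 lies on chromosome 19 (17402939 to 17405648, GRCh38, GENCODE 29). It made up nearly all of the reads of the membrane restriction factors. All 38 members summed to 26007.7 to 26895.9 normalised reads with the empty vector and 25860.5 to 27707.1 with SLC2A3, so the groups overlapped. The 37 members without BST2 summed to 13654 to 14105 with the empty vector and 12502 to 13439 with SLC2A3. That sum rests mostly on MX2, STAT2, IRF1 and IFI35, and no background share was counted for such sums.

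IFITM3, which blocks virus entry at endosomes, had 392, 350 and 348 normalised reads with the empty vector and 423, 329 and 341 with SLC2A3, and the SLC2A3 range took in the whole empty vector range. IFITM1, its relative at the cell surface, had 4 reads over the empty vector group and 1 over the SLC2A3 group, a ratio of 4.10 with a 95% counting interval of 0.406 to 202. IFITM1 shares 351 exon bases with IFITM2, at a mean of 1887 normalised reads, so its own level is uncertain. The log2 change of IFITM3 was -0.0048 (95% interval -0.23 to 0.22, limma adjusted p = 0.995).

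ISG15, the ubiquitin-like modifier that is joined to other proteins and also secreted, had 278, 295 and 265 normalised reads with the empty vector and 315, 336 and 285 with SLC2A3. The groups overlapped in 1 library on each side, and the log2 change was 0.16 (SE 0.113, limma adjusted p = 0.670). USP18, the protease that removes ISG15 and dampens the receptor, had a mean of 89.5 ± 18.8 against 89.8 ± 6.35 (SD, n = 3). HERC5, the ligase that attaches ISG15, had 189 ± 38.4 against 172 ± 41.3. The chemokine CXCL10 was near the limit of measurement, with 26 reads over the empty vector group and 13 over the SLC2A3 group (limma adjusted p = 0.693).

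IFI6, a small protein of mitochondria and endoplasmic reticulum, had 611, 653 and 709 normalised reads with the empty vector and 653, 685 and 626 with SLC2A3. IFI35, an interferon-induced leucine zipper protein, had 1151, 1325 and 1166 against 1177, 1080 and 1085. Per kilobase they followed BST2, at 758 and 590 normalised reads, and neither passed the test, with log2 changes of -0.01 (limma adjusted p = 0.993) and -0.12 (0.543). The groups of both genes overlapped.

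SAMD9L, a restriction factor of poxviruses that is also known as a myeloid tumour suppressor, had 468, 450 and 449 normalised reads with the empty vector and 391, 407 and 387 with SLC2A3. Replicates were tight in both groups (455 ± 10.6 and 395 ± 10.5, SD, n = 3) and did not overlap. The log2 change was -0.21 (SE 0.0934, 95% interval -0.40 to -0.01, limma adjusted p = 0.374).

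EPSTI1, an interferon-induced protein of epithelial and immune cells, had 6.11, 4 and 8.01 normalised reads with the empty vector and 0, 0 and 4.27 with SLC2A3. These rest on 18 reads against 4, a ratio of 4.61 with a 95% counting interval of 1.52 to 18.7. The groups overlapped, since SLC2A3 replicate 3 lay above empty vector replicate 2, and the change did not pass (limma adjusted p = 0.275).

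The other effectors are given by family. The OAS enzymes make 2-5A, the activator of RNase L. OAS2 had the most reads of them, 255 ± 30.2 with the empty vector and 240 ± 33.2 with SLC2A3, and OAS3 had 242 ± 39.1 and 201 ± 22.6 (SD, n = 3). OAS1, OAS2, OAS3, OASL and the exonuclease ISG20 all had fitted changes below 0, from -0.26 to -0.02, and the lowest adjusted p among them was 0.476 by limma. The IFIT proteins bind foreign RNA ends, and IFIT3 led them at 402 ± 32.2 and 368 ± 42.7, whereas IFIT1 stood at 21.2 ± 4.51 and 16.4 ± 2.65. IFIT2 and IFIT5 lay between them, at 82.4 ± 21.8 and 66.1 ± 6.07 with the empty vector and 70.2 ± 14 and 73.7 ± 20.5 with SLC2A3. The exons of IFIT2 overlap 65 bases of LIPA on the other strand, which had a mean of 1383 normalised reads. None of the 4 IFIT genes passed.

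Within the dynamin-like GTPases, MX2, a restriction factor of retroviruses, had 2985 ± 200 normalised reads with the empty vector and 2935 ± 116 with SLC2A3 (SD, n = 3). MX1, which blocks influenza viruses, had 91.4 ± 38.6 and 86.9 ± 5.38, and empty vector replicate 2, at 136, lay far above the other libraries. Per kilobase MX2 stood at 227 normalised reads and MX1 at 10.4. GBP2 had 82.8 ± 14.4 and 92.4 ± 24.3, and GBP1, a marker of interferon gamma signalling in many cells, had 3 reads over the empty vector group and 4 over the SLC2A3 group.

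RSAD2 (viperin, a radical SAM enzyme) and CMPK2 (a mitochondrial nucleotide kinase) are neighbours on chromosome 2. RSAD2 stood at 93.4 ± 17.1 and 88.6 ± 16.3 normalised reads, and CMPK2 at 125 ± 12.7 and 139 ± 37.8 (SD, n = 3). IFI27, IFI44 and IFI44L, which are among the most inducible genes in blood cells exposed to interferon, had few reads in both groups. They had 23, 13 and 12 reads over the empty vector group and 32, 24 and 15 over the SLC2A3 group. XAF1, a partner of the apoptosis inhibitor XIAP, had 225 ± 43.2 and 183 ± 22.3 (limma adjusted p = 0.480), and its exons overlap 2535 bases of PRAL on the other strand, which had a mean of 3.64 normalised reads. PARP9, an ADP-ribosyltransferase that acts with DTX3L, had 240 ± 23.2 and 248 ± 18.4. Its exons overlap 217 bases of DTX3L on the other strand, which had a mean of 1130 normalised reads.

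**Figure D3:**
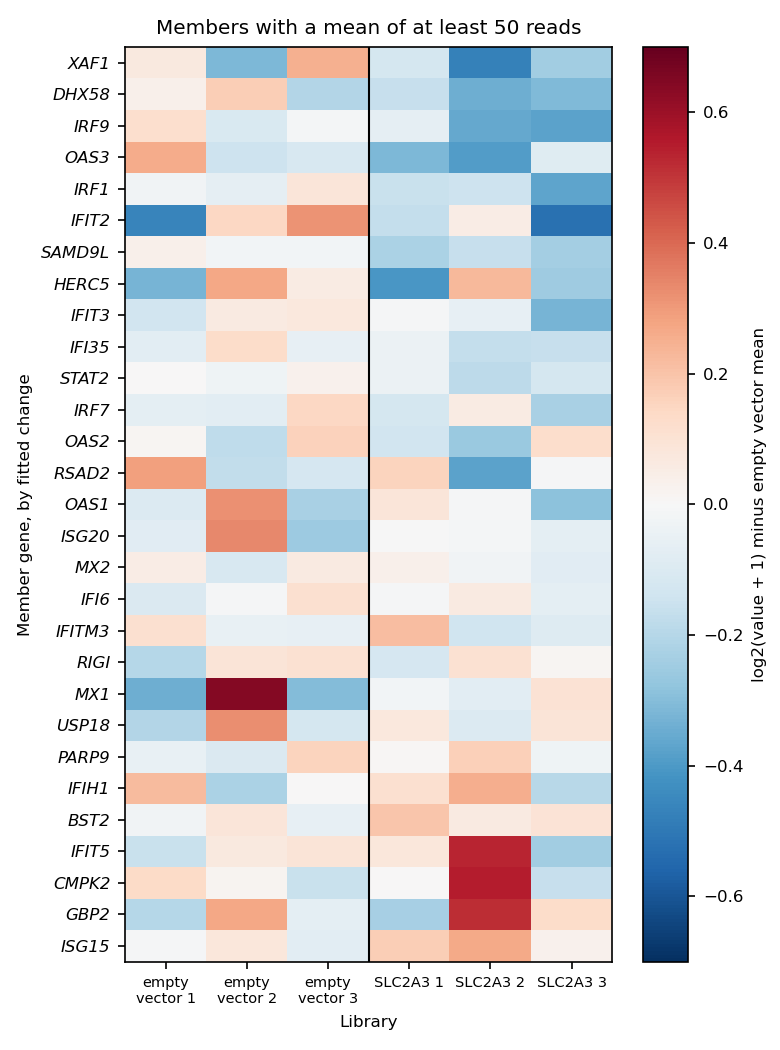
Each member with a mean of at least 50 normalised reads (rows, ordered by fitted change) in each library (columns), coloured by log2(value + 1) minus the mean of the empty vector libraries. Single libraries stand out for single genes, such as empty vector replicate 2 for MX1, and no library is high or low for all 29 members. SLC2A3 replicate 3 was lowest as a whole, with a median log2 deviation of -0.089 from the mean of all libraries. The other libraries had medians of -0.021 to 0.026.

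Members also varied within a group. Over the 29 better measured members, the median SD was 10.2% of the mean in both groups. The highest value lay in an empty vector library for 27 of the 38 members (6, 8 and 13 in replicates 1 to 3) and in an SLC2A3 library for 11 (2, 7 and 2). The lowest value lay in an SLC2A3 library for 23 members (4, 10 and 9) and in an empty vector library for 15 (4, 5 and 6). These counts include members with few reads and were not made over all tested genes, so they have no background beside them.

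The other genes of the pathway came from 5 lists, with 112 genes, of which 100 were tested. Across them 1 gene was higher and 0 were lower by limma, against 0.692% and 0.8% of all tested genes. That gene was LY6E, an interferon-inducible membrane protein that restricts coronaviruses. It had 9148, 9706 and 9434 normalised reads with the empty vector and 10788, 10579 and 10451 with SLC2A3, with all SLC2A3 libraries above all others. It rose 1.12-fold, a log2 change of 0.17 (SE 0.0403, limma adjusted p = 0.0231). LY6E was not called without empty vector replicate 1 (limma adjusted p = 0.161), without empty vector replicate 3 (0.0939), or without SLC2A3 overexpression replicate 1 (0.0644) or 3 (0.0954).

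**Figure D4:**
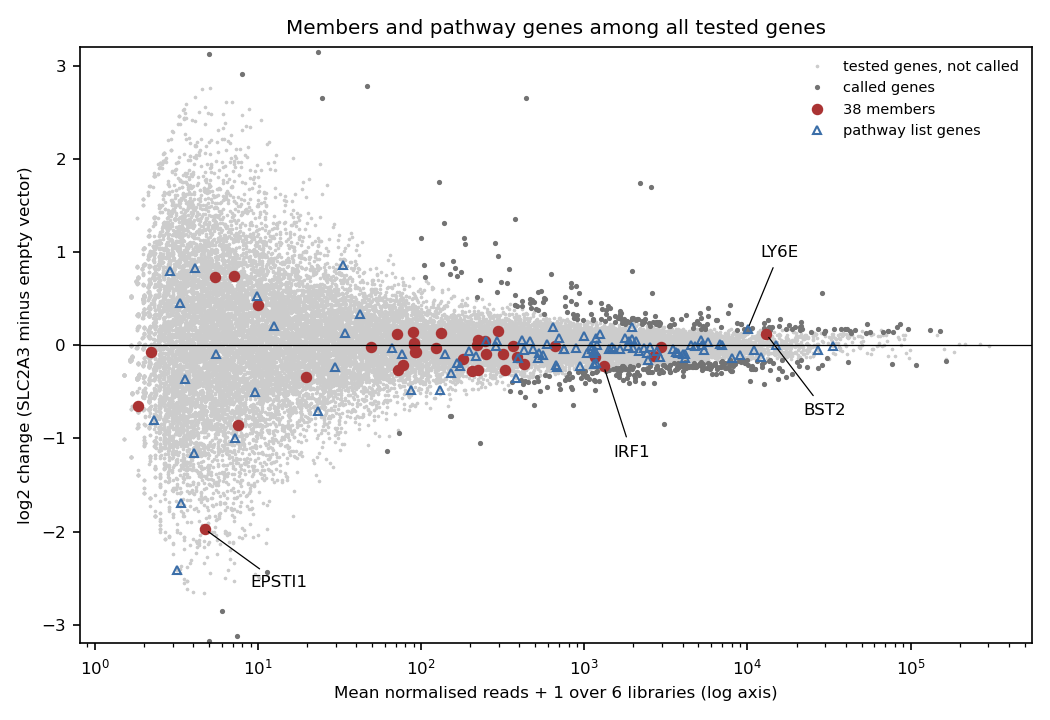
Fitted log2 change against mean normalised reads plus 1 (log axis) for all tested genes, with called genes in dark grey, the 38 members as red dots and the tested genes of the pathway lists as open triangles. The members lie among the other genes of their level, LY6E is the called gene of the lists, and 1 gene lies beyond the vertical axis.

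Of 11 interferon ligand genes, 5 had 0 reads in all libraries, which allows up to 3 reads of the 200231484 in all, counting error only. None of the 11 exceeded 7.67 normalised reads in any library. IFNK, the keratinocyte interferon, had the smallest unadjusted p of the ligand and receptor list, with 6.11, 4 and 2 normalised reads against 0, 0 and 2.14 (limma adjusted p = 0.403). Levels of the receptor subunits were higher. IFNAR1 had a mean of 1534 ± 62.4 and 1495 ± 9.998, IFNAR2 200 ± 22.7 and 192 ± 20.7, and IFNGR1 548 ± 57.0 and 495 ± 10.5 (SD, n = 3), and 0 of 8 tested genes of this list passed.

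In the kinase and inhibitor list, 0 of 12 genes passed. The kinases JAK1 and TYK2 had log2 changes of -0.08 (limma adjusted p = 0.622) and -0.14 (0.195). TYK2 passed without SLC2A3 overexpression replicate 1 (log2 change -0.19, limma adjusted p = 0.0409). SOCS1, an inhibitor of these kinases that interferon itself induces, had 27.5, 17.0 and 22.0 normalised reads against 42.7, 53.7 and 28.8. The SLC2A3 libraries all lay above the others, at low reads, with a log2 change of 0.86 (95% interval 0.14 to 1.59, limma adjusted p = 0.297).

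In the sensing and adaptor list, 0 of 24 tested genes passed, and 5 (20.8%) had an unadjusted p under 0.05, all lower, against 11.8% of all genes (6.12% lower) and 18.6% of genes with a mean of at least 50. ADAR, which edits double-stranded RNA, stood at 12595 ± 545 and 11543 ± 361 normalised reads (SD, n = 3), a log2 change of -0.13 (limma adjusted p = 0.153). It passed with DESeq2 (adjusted p = 0.0326). TRIM25, a ubiquitin ligase linked to RIG-I signalling, had a log2 change of -0.16 (limma adjusted p = 0.171). MAVS, the adaptor of RIG-I and MDA5, had 11086 ± 163 and 10690 ± 563, and STING1, the adaptor of the DNA sensor cGAS, 9295 ± 294 and 8674 ± 431. CGAS, TBK1 and IRF3 had log2 changes of -0.04, -0.08 and 0.00, with limma adjusted p of 0.912, 0.735 and 0.992.

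Of 5 further interferon regulatory factors, 0 passed. IRF5, a factor of inflammatory myeloid cells, had the smallest unadjusted p, at 4278 ± 33.2 and 4000 ± 160 normalised reads (SD, n = 3, limma adjusted p = 0.429). In the list of 51 tested further interferon-stimulated genes, LY6E was the 1 call in the main fit and 50 did not pass. UBE2L6 passed with DESeq2 (log2 change 0.19, adjusted p = 0.0250). It also passed with a value of at least 50 required in 3 libraries (limma adjusted p = 0.0386). PLSCR1 passed with edgeR without a filter (-0.37, edgeR adjusted p = 0.0458). SHFL passed without both libraries numbered 2 (0.36, limma adjusted p = 0.0490). The median log2 change of the 100 tested pathway genes was -0.04, and 22 of these genes did not overlap between the groups, against 16.3% of all tested genes and 22.7% of those with a mean of at least 50. Fitted changes were below 0 for 71% of them, against 49.7% and 52.1%. At an unadjusted p under 0.05 by limma there were 19 (19%), 3 higher and 16 lower. The shares were 11.8% of all tested genes (5.63% higher and 6.12% lower) and 18.6% of those with a mean of at least 50.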

How the data were processed

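The data are RNA-seq libraries of OCI-AML3 cells, 3 per group, built, per the labels, by a strand-keeping (NEBNext directional) kit. BWA, TopHat2 and hg38 appear in the submitters' processing notes, without roles. The counting tool, its strand setting and its annotation are not given in the sources used here.

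Every deposited value is a signal, whole reads of a gene over a library's own size factor: multiplied back, all were whole within 0.001 reads. Symbols came from the gene name table, and lengths and positions from GENCODE 29.

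log2(value + 1) was fitted with limma 3.58.1 (R 4.3.3) on the group alone. Genes had to reach a value of 1 in 3 or more libraries, with Benjamini-Hochberg adjustment over all of them and a threshold of 0.05. This scale can shrink changes of low genes, and their fitted change can differ in size or sign from the ratio of group means. GBP1 was fitted at -0.07, though its mean was 1.01 normalised reads with the empty vector and 1.42 with SLC2A3. IFI44L was fitted at 0.73, though its means differed 1.19-fold. The members and lists were chosen with earlier results of these data known. Library values are given for members with an unadjusted p under 0.05, the 6 highest per kilobase, sensors, transcription factors, ISG15 and any called under an alternative; for each pathway list, called genes or the 2 with the smallest p, and 10 core genes. The values of 2 genes chosen by this rule are not reported here. Others were chosen after their values were seen. Replicate pairs differed beyond sampling noise (chi-square per gene 3.50 to 6.78). Counting intervals are exact binomial (Clopper-Pearson) and cover counting error only. edgeR 4.0.16 and DESeq2 1.42.0 were run on recovered reads among 23 alternatives. The fits were tested on simulated data, with changes planted only in better measured genes. The planted changes were larger than those of the members with a mean of at least 50 normalised reads. Changes as small as theirs were not covered. Every simulated gene had the same spread beyond counting error, so a spread that differs between genes was not covered either.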

Additional observations from a re-analysis of the deposited data

How the results depend on the processing

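The SLC2A3 log2 change was past the threshold in all 23 alternatives. No member was called in 21 of the 23 alternatives. With a value of at least 50 required in 3 libraries, 1 member was called (IRF1, limma adjusted p = 0.0495, 739 genes in all, 5.53% of those tested, and 2 pathway genes). Without both libraries numbered 2, 2 members were called (IRF1 at -0.29 and BST2 at 0.19, limma adjusted p = 0.0305 and 0.00414, among 2.02% of all genes), with 2 pathway genes and 3 members at an unadjusted p under 0.05. The adjusted p of IRF1 ran from 0.0305 to 0.491 and that of BST2 from 0.00414 to 0.580 over all alternatives; the cause was not tested.

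All genes called numbered 418, against 634 with edgeR without a filter (2 pathway genes), 784 with DESeq2 (3 pathway genes), 613 with edgeR and TMM factors, and 188 to 466 when 1 library was left out. Members at an unadjusted p under 0.05 numbered 8 with limma without a filter on low values, 3 with edgeR and upper-quartile factors, with DESeq2 with or without its independent filtering and with edgeR and a replicate block, and 2 to 6 when 1 library was left out. Leaving out 1 library gave 0 to 1 called pathway genes, 0 called members and a median log2 change of the members of -0.0901 to -0.0324.

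Signs of changes close to 0 turned. IFITM3 was at 0.0029 with edgeR and TMM factors, 0.0056 with relative log expression factors, 0.013 with upper-quartile factors, 0.0027 with library totals, 0.0021 without a filter, 0.000325 with the replicate block and 0.0033 with DESeq2 with or without independent filtering. RIGI was at -0.0044 (edgeR with TMM), -0.0019 (relative log expression), -0.0046 (totals), -0.0053 (no filter), -0.0032 (DESeq2, both settings) and -0.0024 (limma-voom). IFI6 was at 0.0011 with upper-quartile factors. Without both libraries numbered 2, IFIH1 was at -0.15, IFITM3 at 0.038 and RIGI at -0.0041. With 1 library left out, IFI6 ran from -0.0570 to 0.0498, IFIH1 from -0.0538 to 0.18, IFITM3 from -0.12 to 0.0637 and RIGI from -0.10 to 0.0605.

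Libraries with the same number did not deviate together (correlations of -0.08, -0.0024 and -0.0030 over 13290 genes). A replicate block called 363 genes and 0 pathway genes with limma (LY6E adjusted p = 0.0535), 440 genes with edgeR, 0 members in both, and gave a member median of -0.07 with limma and an SLC2A3 log2 change of 1.70. The 9 members under a mean of 50 normalised reads had the widest intervals; the part of depth in this was not tested.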
